A study of Mus musculus with 9 samples.

Results

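The FGF receptor and ERK signalling genes of the newborn mouse lens were described from RNA-Seq of whole lenses. The set held 32 of the 47729 genes in the tables, taken by gene symbol. It comprised 2 ligands, 5 receptors, 8 docking and adaptor proteins, 7 members of the RAS to ERK cascade with its inhibitor *Nf1*, 7 feedback inhibitors and 3 ETS transcription factors. Of these, 31 passed the filter on low counts and were tested. The exception was *Fgfr4*.

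All mice were on the *FVB/N* background and were killed as newborns at P0. The controls were non-transgenic *FVB/N* mice. *P0-3.9GFPCre* mice were hemizygous for a transgene encoding a fusion of GFP with Cre recombinase, and *Le-Cre* mice were hemizygous for a transgene encoding nuclear Cre with GFP behind an internal ribosome entry site. Both transgenes are driven by the *Pax6* P0 promoter, which acts in the ectoderm that forms the lens, and the labels named no floxed allele for any group. Each line was sampled as 3 pools, and each pool combined 6 lenses from 3 mice. The pools are therefore averages over animals and over the epithelial and fibre cells of the lens. In such bulk RNA, fewer cells of a type and less RNA per cell cannot be told apart.

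FGFs bind their receptors together with heparan sulphate, and the paired receptors phosphorylate the docking protein FRS2. FRS2 recruits GRB2 with the exchange factor SOS1 and the phosphatase SHP2, which load RAS with GTP, and RAF, MEK and ERK kinases then relay the signal to the nucleus. ERK signalling induces ETS factors of the PEA3 group and its own inhibitors of the Sprouty, SPRED and DUSP families. In the lens this pathway is known for driving epithelial cells at the equator into fibre differentiation, and the receptors encoded by *Fgfr1*, *Fgfr2* and *Fgfr3* act redundantly there.

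The depth was 20670968 to 28098059 expected counts per pool, of which crystallin genes took 39.1% to 43.0%. The labelled tissue was checked by marker genes. All 8 fibre markers and all 6 epithelial markers reached 1 TPM, and the summed TPM of the epithelial markers was 215 to 243 in *FVB/N*, 223 to 238 in *P0-3.9GFPCre* and 198 to 228 in *Le-Cre* pools. Of other cell types, all 5 vessel markers (19.6 to 39.7 TPM summed), 3 of 5 red cell markers (59.2 to 199 TPM), 4 of 5 pigment cell markers (7.55 to 17.2 TPM), 3 of 5 neuron and glia markers (3.54 to 6.12 TPM) and 2 of 6 retina markers (0.63 to 3.84 TPM) reached 1 TPM. None of the 5 corneal and 5 macrophage markers reached it, and *Krt12*, *Krt14* and the glial factor *Sox10* were listed at 0 in every pool. The 5 mesenchyme markers, of which 2 reached 1 TPM, summed to 32.7 to 33.2 TPM in *FVB/N*, 27.3 to 31.6 TPM in *P0-3.9GFPCre* and 25.4 to 28.4 TPM in *Le-Cre* pools, so that both Cre lines lay below the controls. Transcripts of 4 Y-linked genes summed to 126 to 194 CPM in *FVB/N*, 1.66 to 135 CPM in *P0-3.9GFPCre* and 0.633 to 71.9 CPM in *Le-Cre* pools. All *Le-Cre* pools lay below all *FVB/N* pools, and the *P0-3.9GFPCre* pools overlapped with both. Y-linked RNA thus also differed widely between pools of the same Cre line. The part of mesenchymal RNA in the results below was not tested. Log2 fold changes with the Y-linked sum as a covariate are given for *Dusp4*, *Etv5* and *Fgfrl1* in both Cre lines. For *Etv4* they are given in *Le-Cre* only, and for the other genes they are not given.

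Levels of different genes were compared as TPM, which is scaled by transcript length. Over the 9 pools, 26 of the 32 genes had a mean of at least 1 TPM, 17 of at least 10 TPM and 6 of at least 50 TPM. *Fgfr3* alone exceeded a mean of 100 TPM. In the *FVB/N* order of means, 13 neighbouring pairs had pools that did not overlap and 18 had pools that did.

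**Figure D1:**
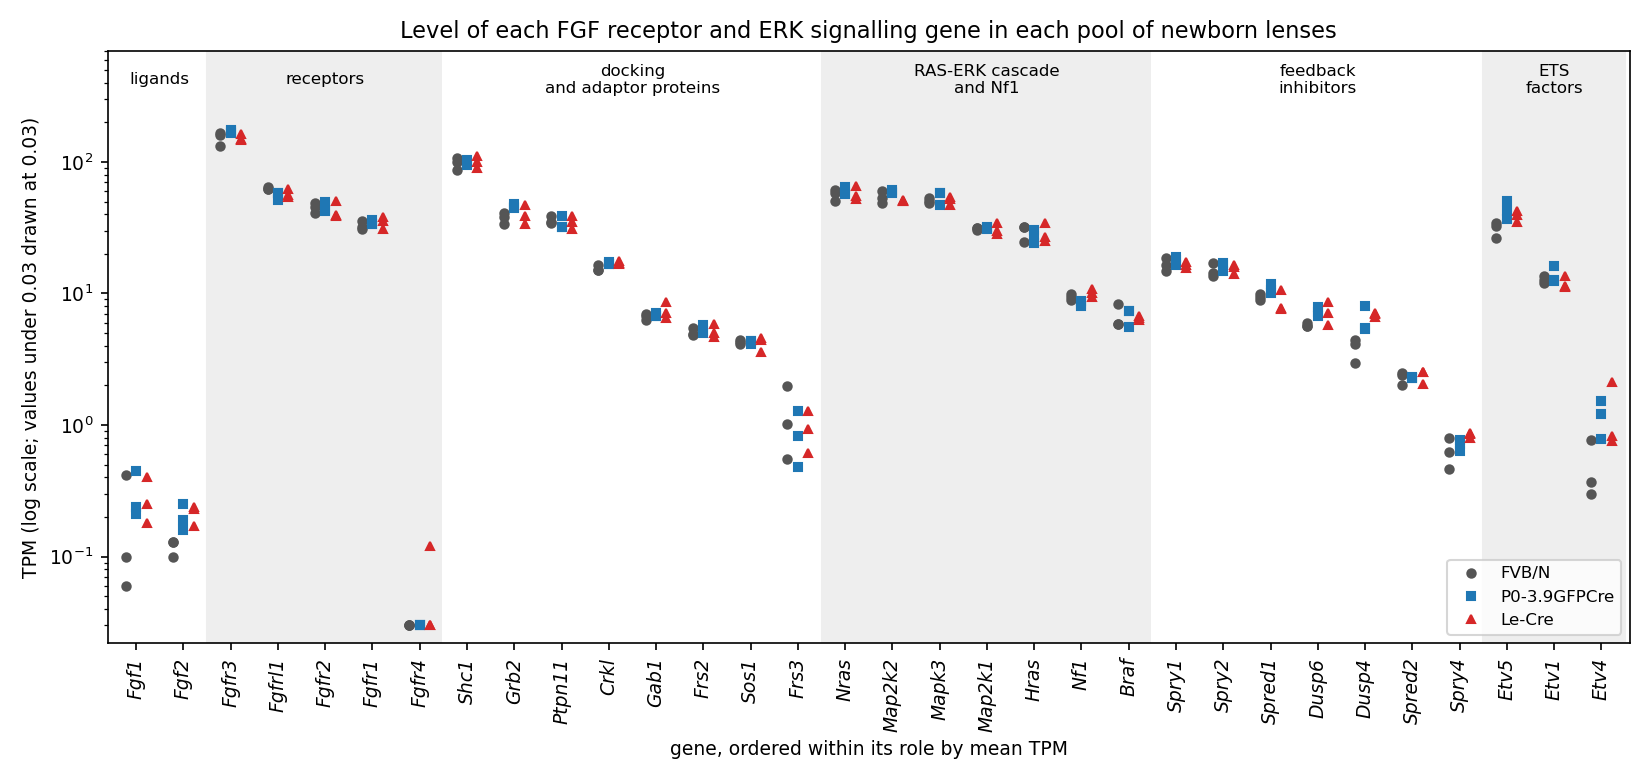
TPM of each of the 32 genes (log axis, values under 0.03 drawn at 0.03) in the 9 pools, grouped by role, with 3 points per line. *Fgfr3* and *Shc1* lie at the top near 100 TPM or above, the ligands *Fgf1* and *Fgf2* lie below 0.5 TPM, and the points of the 3 lines largely coincide for most genes.

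The receptors were dominated by *Fgfr3*. *Fgfr3*, on chromosome 5 from 33721674 to 33737068 of GRCm38, had 160, 166 and 133 TPM in the *FVB/N* pools, 165, 175 and 171 TPM in the *P0-3.9GFPCre* pools and 147, 149 and 162 TPM in the *Le-Cre* pools. The pools of the lines overlapped except that all *P0-3.9GFPCre* pools lay above all *Le-Cre* pools on this scale. *Fgfr3* made up 62.8% to 69.7% of the summed TPM of the 4 receptors with a kinase domain in every pool, *Fgfr2* made up 17.1% to 21.2% and *Fgfr1* made up 13.3% to 16.0%. The order *Fgfr3*, *Fgfr2*, *Fgfr1* held in 9 of 9 pools, with *Fgfr3* 2.96 to 4.09 times *Fgfr2* and *Fgfr2* 1.10 to 1.42 times *Fgfr1*. *Fgfr4* was listed at 0 TPM in the 3 *FVB/N* pools, at 0, 0 and 0.01 TPM in *P0-3.9GFPCre* and at 0, 0.12 and 0.03 TPM in *Le-Cre* pools, and its largest count in any pool was 2. *Fgfrl1*, which encodes a receptor without the kinase domain, was second among the receptors at 63.1 ± 1.26 TPM (SD, n = 3) in *FVB/N* and did not overlap with *Fgfr2* there, at 45.1 ± 3.96 TPM.

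The 2 ligands of the set were among the lowest genes. *Fgf1*, which binds all FGF receptors, had 0.10, 0.42 and 0.06 TPM in *FVB/N*, 0.24, 0.21 and 0.45 TPM in *P0-3.9GFPCre* and 0.40, 0.25 and 0.18 TPM in *Le-Cre* pools, from 6 to 34 counts. The pools of all lines overlapped. Mean TPM was higher in *Le-Cre* (0.277) than in *FVB/N* (0.193), whereas mean normalized counts were lower (0.435 against 0.695 CPM). The estimated *Fgf1* lengths, which enter the TPM, were 1079, 1097 and 3840 bases in *Le-Cre* and 3981, 3827 and 3981 bases in *FVB/N* pools. *Fgf2*, the basic FGF stored in basement membranes, had 13.1 to 37.4 counts in a pool and 0.120 ± 0.017 TPM in *FVB/N*. Its values by line are given with the comparisons.

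Among docking and adaptor proteins, *Shc1* was highest and *Frs3* lowest. *Shc1*, which couples receptors to GRB2, had 99.2, 107 and 87.3 TPM in *FVB/N*, 98.8, 94.9 and 104 TPM in *P0-3.9GFPCre* and 101, 110 and 90.5 TPM in *Le-Cre* pools. It was 2.05 to 2.96 times *Grb2* in TPM. *Frs3*, the second FRS docking gene, had 0.55, 1.97 and 1.01 TPM in *FVB/N*, 0.83, 0.48 and 1.27 TPM in *P0-3.9GFPCre* and 1.27, 0.61 and 0.94 TPM in *Le-Cre* pools. *Frs2*, the main docking gene of FGF receptors, lay above it at 5.07 ± 0.339 TPM in *FVB/N*. The pools of the 3 lines overlapped for each of these 4 genes in normalized counts. *Ptpn11*, which encodes SHP2, had 36.2 ± 2.47 TPM in *FVB/N*, *Crkl* 15.5 ± 0.788 TPM, *Gab1* 6.63 ± 0.361 TPM and *Sos1* 4.27 ± 0.126 TPM.

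Within the cascade, *Nras* was the highest member of the set. It had 61.3, 57.8 and 50.8 TPM in *FVB/N*, 59.4, 64.8 and 56.6 TPM in *P0-3.9GFPCre* and 54.7, 65.6 and 52.3 TPM in *Le-Cre* pools. *Nras* was 1.59 to 2.67 times *Hras* in the 9 pools. *Braf* was lowest, with 5.82, 8.25 and 5.91 TPM in *FVB/N*, 7.42, 7.34 and 5.53 TPM in *P0-3.9GFPCre* and 6.30, 6.75 and 6.55 TPM in *Le-Cre* pools, and it made up 9.65% to 13.9% of the TPM of the 3 RAF genes. *Map2k2*, encoding MEK2, exceeded *Map2k1*, encoding MEK1, in 9 of 9 pools, by 1.47 to 1.91 times. *Mapk3*, encoding ERK1, had 50.8 ± 2.21 TPM (SD, n = 3) in *FVB/N*.

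Among the feedback inhibitors, *Spry1* and *Spry2* were the most abundant. *Spry1* had 16.6, 18.7 and 14.7 TPM in *FVB/N*, 18.9, 16.4 and 17.9 TPM in *P0-3.9GFPCre* and 17.4, 15.6 and 16.5 TPM in *Le-Cre* pools. It was 0.992 to 1.21 times *Spry2*, while *Spry4* made up 1.38% to 2.45% of the Sprouty TPM. *Spred1* was 3.02 to 5.19 times *Spred2*. *Etv5* led the PEA3 group of ETS factors with 66.7% to 78.6% of its TPM, followed by *Etv1* with 19.5% to 32.4% and *Etv4* with 0.671% to 4.38%. The order *Etv5*, *Etv1*, *Etv4* held in every pool. The plot of shares gives the composition of the receptor, RAF, PEA3 and Sprouty families in each pool, in which the third *P0-3.9GFPCre* pool had the highest *Araf* share of the RAF genes, at 42.4%.

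**Figure D2:**
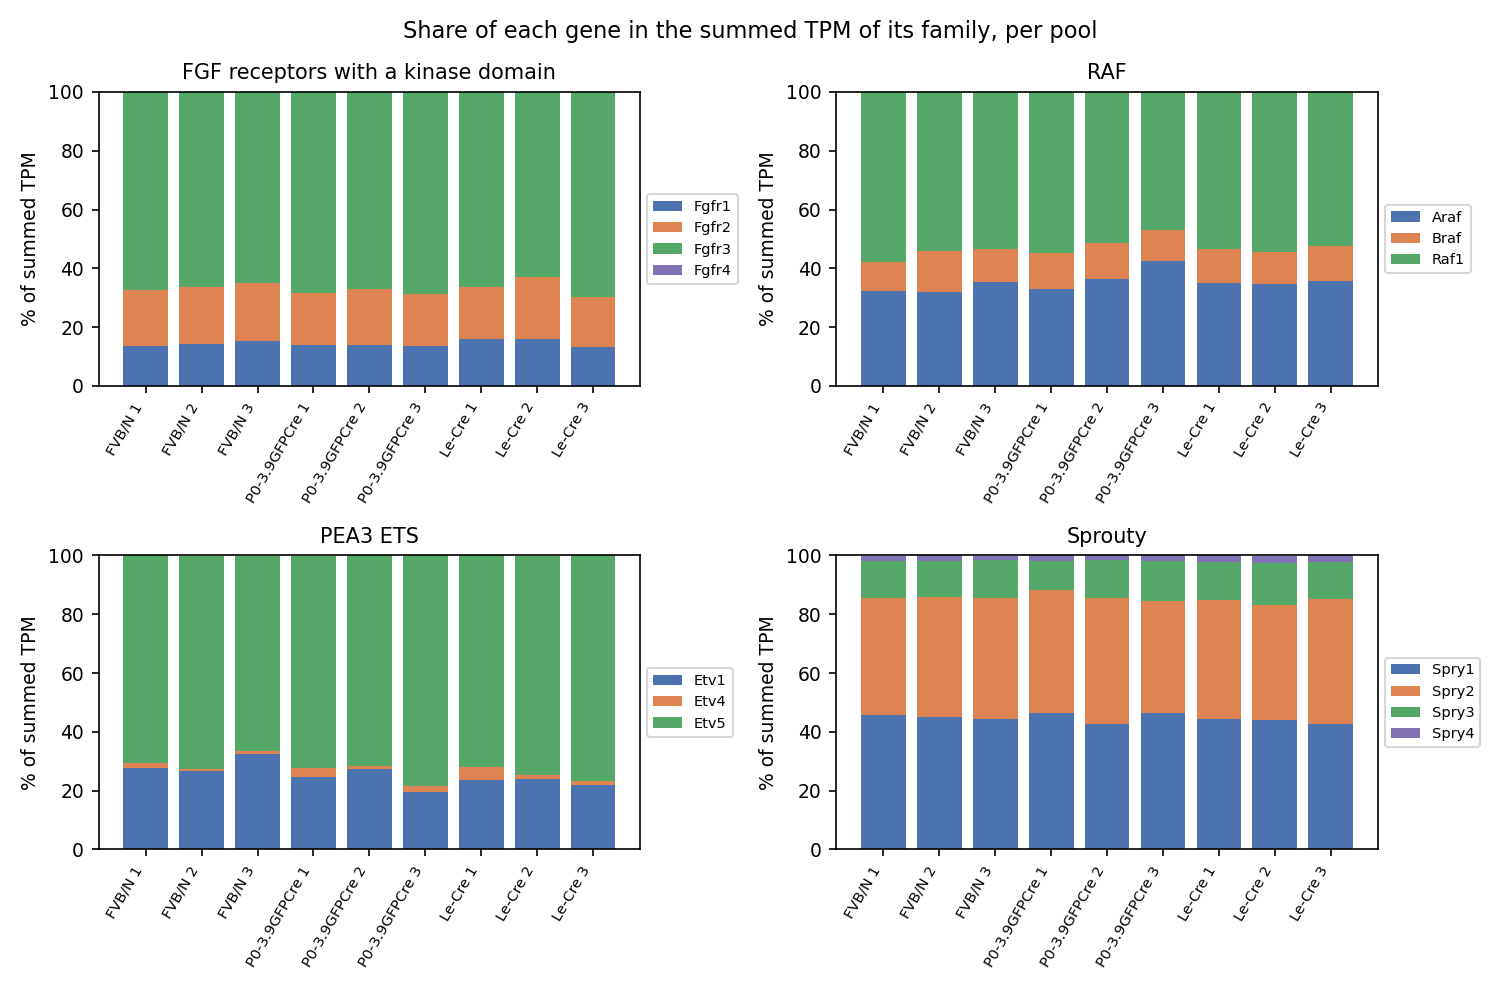
Stacked bars give each gene's percentage of the summed TPM of its family in each of the 9 pools, for the FGF receptors with a kinase domain, the RAF genes, the PEA3 group and the Sprouty genes. *Fgfr3* fills 62.8% to 69.7% of the receptor bars and *Etv5* 66.7% to 78.6% of the PEA3 bars, while *Fgfr4* is too small to be seen.

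RSEM also gives for each gene a length averaged over its transcripts by their estimated share, which moves with the mix of transcripts. Between *Le-Cre* and *FVB/N*, 1 of the 32 genes had lengths that did not overlap, against 5.69% of all tested genes. *Etv1* lengths were 3118, 3064 and 3316 bases in *FVB/N* and 3864, 3353 and 3652 bases in *Le-Cre* pools, against 3278, 2574 and 3390 bases in *P0-3.9GFPCre*. The *P0-3.9GFPCre* pools overlapped with both. Between *P0-3.9GFPCre* and *FVB/N* lengths did not overlap for 3 genes, against 6.55%, with *Hras* and *Nf1* longer and *Grb2* shorter in *P0-3.9GFPCre*. For *Grb2*, the *P0-3.9GFPCre* pools with 999, 1091 and 1013 bases lay below the *FVB/N* pools with 1234, 1201 and 1354 bases, whereas its normalized counts overlapped. Between the Cre lines lengths did not overlap for 2 genes, against 6.9%. These were *Fgfr3* and *Spred1*, both longer in *Le-Cre*. The length enters the TPM, and *Fgfr3* pools that lay apart between the Cre lines in TPM overlapped in normalized counts. With short single-end reads these lengths are estimates, and no test was made on them.

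The question of the study behind the comparisons was whether hemizygous Cre lenses differ from non-transgenic lenses in gene expression. Normalized counts were used here, as CPM scaled to TMM library sizes. A gene was called at 1.5-fold or more and an adjusted p no larger than 0.05, from the quasi-likelihood test of edgeR adjusted across genes after Benjamini and Hochberg. Comparing *Le-Cre* lenses with *FVB/N*, 0 of 31 signalling genes were called, where 0.0643% of all 15557 tested genes did. The *P0-3.9GFPCre* comparison with *FVB/N* gave 0 of 31 against 0% of all tested genes, and *Le-Cre* against *P0-3.9GFPCre* gave 0 of 31 against 0%. DESeq2's Wald test called 1 member, *Dusp4*, between *Le-Cre* and *FVB/N*, and 49 of the 16869 genes to which it gave an adjusted p (0.29%). Between *P0-3.9GFPCre* and *FVB/N* it called 0 members and 3 of 2905 genes (0.103%), and between the Cre lines 0 members and 35 of 17388 genes (0.201%).

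Most members varied little between pools. Their coefficient of variation over the 9 pools had a median of 7.43%, against 13.4% over all tested genes, and was under 10% for 22 of 31. The highest was that of *Fgf1*, at 67.4%, and the lowest that of *Fgfr1*, at 2.98%. *Etv4* and *Frs3*, low in counts like *Fgf1*, had 41.0% and 31.6%. The members were not matched by level to all tested genes, so the difference in medians cannot be read as a trait of the pathway. Against *FVB/N*, the 31 members had a median log2 fold change of 0.00 for *Le-Cre* and 0.01 for *P0-3.9GFPCre*, and all tested genes had medians of 0.00 and 0.00. The plot of intervals shows most members close to 0 in both lines.

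**Figure D3:**
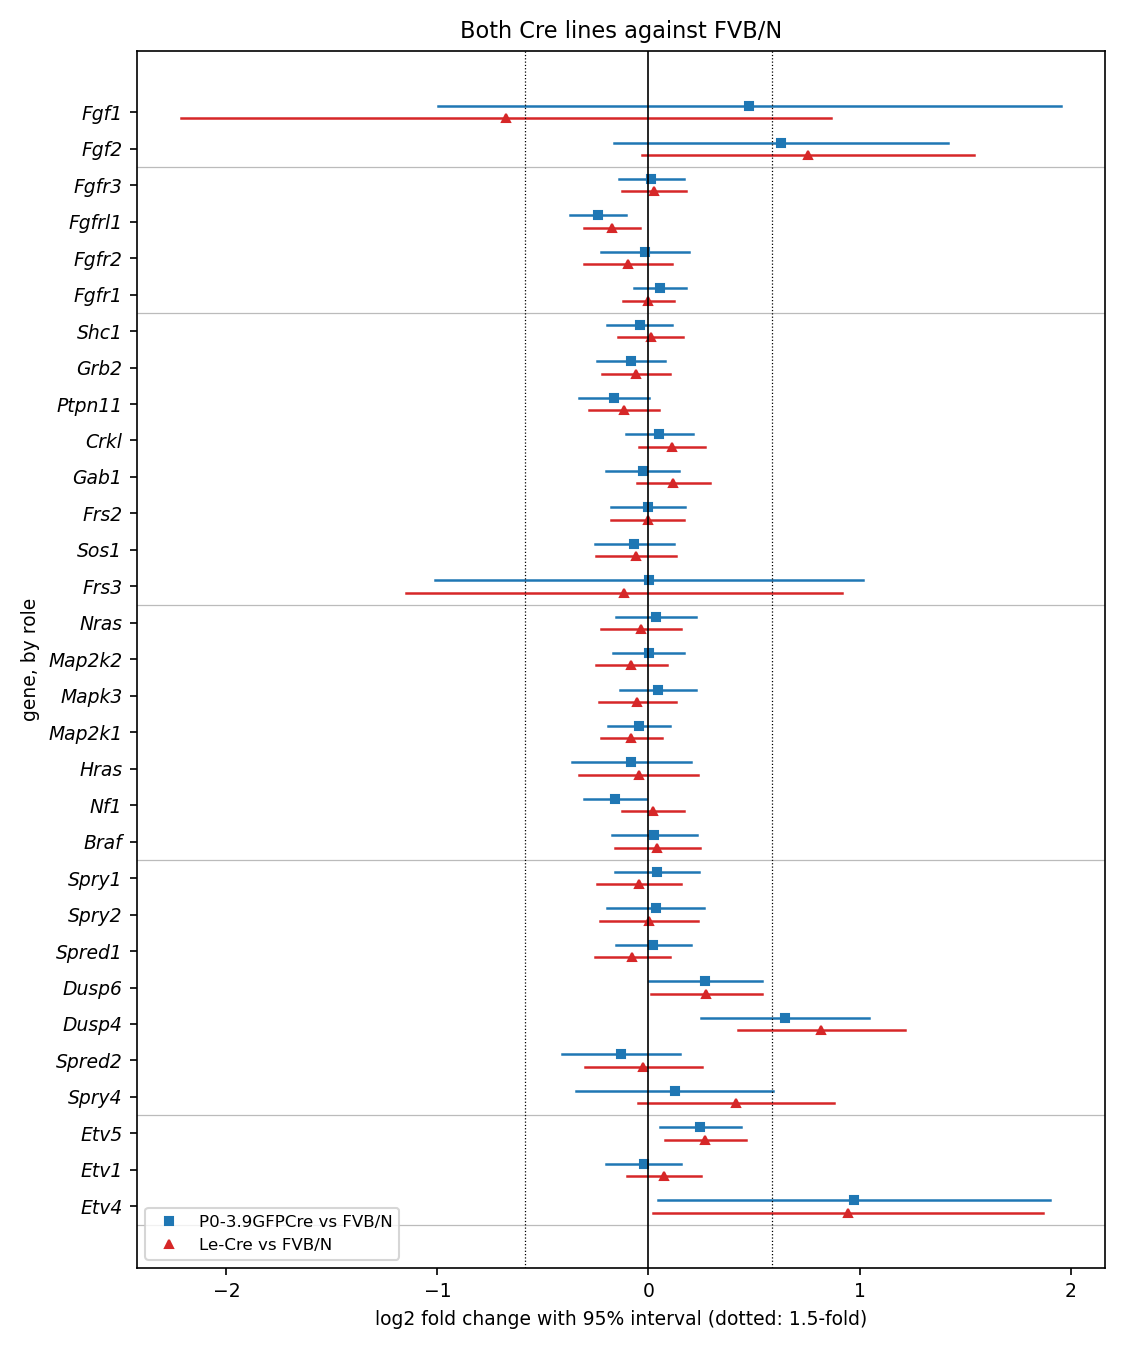
Log2 fold change of each of the 31 tested genes in *P0-3.9GFPCre* (squares) and *Le-Cre* (triangles) relative to *FVB/N*, with its 95% interval from edgeR's fit. Dotted lines mark 1.5-fold. Most intervals straddle 0 within the dotted lines. Those of *Dusp4*, *Etv5*, *Dusp6* and *Etv4* lie above 0 in both lines, those of *Dusp6* and *Etv4* only just. Those of *Fgfrl1* lie below 0 in both lines and that of *Nf1* in *P0-3.9GFPCre* only. Those of *Fgf1*, *Fgf2*, *Frs3* and *Etv4* are wide.

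An unadjusted p under 0.05 occurred for 5 members between *Le-Cre* and *FVB/N* (16.1% of 31, against 7.94% of all tested genes), for 6 in *P0-3.9GFPCre* (19.4% against 6.81%) and for 1 between the Cre lines (3.23% against 7.88%). Both comparisons with *FVB/N* use the same 3 control pools. In *Le-Cre* the 5 genes were *Dusp4*, *Dusp6*, *Etv4* and *Etv5* with higher counts, where 3.6% of all tested genes were higher at this p, and *Fgfrl1* with lower counts, where 4.35% were lower. In *P0-3.9GFPCre* the 4 higher genes had the same names, where 3.41% of all tested genes were higher, and the 2 lower genes were *Fgfrl1* and *Nf1*, where 3.41% were lower. Between the Cre lines the single gene was *Nf1*, higher in *Le-Cre*, where 3.63% of all tested genes were higher and 4.25% lower. Pools did not overlap for 5 members between *Le-Cre* and *FVB/N*, against 13.5% of all tested genes. Of these, 4 were higher, against 6.46% of all tested genes, and 1 was lower, against 7.03%. Between *P0-3.9GFPCre* and *FVB/N* pools did not overlap for 7 members, against 12% of all tested genes, with 5 higher (6.02%) and 2 lower (5.94%). Between the Cre lines this held for 4 members, against 14.1%, with 3 higher in *Le-Cre* (6.74%) and 1 lower (7.37%). With the Y-linked sum as a covariate, edgeR's quasi-likelihood test gave 2 members an unadjusted p under 0.05 in each of the 3 comparisons. The share over all tested genes was not taken for that fit. An exact two-sided permutation test on 3 and 3 pools has a smallest possible p of 0.1.

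*Dusp4* had the smallest p of the members in *Le-Cre*, whereas the log2 fold changes of *Etv4* were larger in both lines. *Dusp4* encodes a nuclear phosphatase of ERK and other MAP kinases and lies on chromosome 8 from 34807297 to 34819894. Its counts were 11.3, 10.4 and 7.82 CPM in the *FVB/N* pools, 13.0, 13.2 and 20.0 CPM in the *P0-3.9GFPCre* pools and 17.7, 15.7 and 18.7 CPM in the *Le-Cre* pools. All 6 transgenic pools lay above all 3 control pools, and the third *P0-3.9GFPCre* pool was the highest of all. That pool had the lowest Y-linked sum of its line, 1.66 CPM. The *Le-Cre* log2 fold change stood at 0.82 (standard error 0.18, 95% interval 0.42 to 1.21), with an adjusted p of 0.222 by edgeR's quasi-likelihood test. In *P0-3.9GFPCre* it was 0.65 (standard error 0.18, 95% interval 0.25 to 1.04, adjusted p = 0.590 by the same edgeR test) and 0.41 without the third pool. Both sizes exceeded 1.5-fold, and neither passed the adjusted threshold.

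DESeq2's Wald test called *Dusp4* in *Le-Cre* (log2 fold change 0.82, adjusted p = 0.00635) and gave it no adjusted p in *P0-3.9GFPCre*. Without the filter on low counts, edgeR called it in both lines, with adjusted p-values of 0.000312 and 0.0131. That fit called 131 of 27804 genes (0.471%) in *Le-Cre* and 93 (0.334%) in *P0-3.9GFPCre*, and between the Cre lines 123 (0.442%) and 0 members. With the Y-linked sum as a covariate the log2 fold changes were 0.48 in *Le-Cre* and 0.45 in *P0-3.9GFPCre*. Between the Cre lines *Dusp4* differed by 0.17 on the log2 scale, with a 95% interval of -0.22 to 0.56.

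*Etv5*, a PEA3 factor induced by FGF signalling in many tissues, lies on chromosome 16 from 22381309 to 22439719. Its counts were 85.3, 82.1 and 88.7 CPM in *FVB/N*, 92.8, 94.5 and 116 CPM in *P0-3.9GFPCre* and 108, 98.0 and 102 CPM in *Le-Cre* pools. All 6 transgenic pools lay above the controls, but the sizes were small. The log2 fold change was 0.27 in *Le-Cre* (95% interval 0.08 to 0.46, adjusted p = 0.453 by edgeR's quasi-likelihood test) and 0.25 in *P0-3.9GFPCre* (95% interval 0.05 to 0.44, adjusted p = 0.651 by edgeR). Without the third *P0-3.9GFPCre* pool the latter was 0.13, and with the Y-linked sum as a covariate the values were 0.10 in *Le-Cre* and 0.15 in *P0-3.9GFPCre*.

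*Dusp6* encodes the cytoplasmic phosphatase specific to ERK, a classic reporter of FGF activity, and lies on chromosome 10 from 99263231 to 99267489. Its counts were 14.8, 15.3 and 15.4 CPM in *FVB/N*, 17.7, 17.1 and 20.0 CPM in *P0-3.9GFPCre* and 14.9, 20.99 and 19.1 CPM in *Le-Cre* pools. The *P0-3.9GFPCre* pools lay above the controls, whereas the first *Le-Cre* pool lay among them. The log2 fold change was 0.27 in both lines (standard error 0.12 in both), with adjusted p-values of 0.613 in *Le-Cre* and 0.722 in *P0-3.9GFPCre* by edgeR's quasi-likelihood test. Without the second *Le-Cre* pool the *Le-Cre* value was 0.17.

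*Etv4*, the least abundant PEA3 factor, rested on 11 to 47 counts in a pool. Its counts were 0.719, 0.645 and 0.450 CPM in *FVB/N*, 1.48, 0.969 and 1.12 CPM in *P0-3.9GFPCre* and 1.67, 0.702 and 1.13 CPM in *Le-Cre* pools. The *P0-3.9GFPCre* pools lay above the controls, and the second *Le-Cre* pool lay within them. The log2 fold change was 0.95 in *Le-Cre* (95% interval 0.02 to 1.87) and 0.97 in *P0-3.9GFPCre* (95% interval 0.04 to 1.90), with adjusted p-values of 0.620 and 0.708 by edgeR's quasi-likelihood test. Without the first *Le-Cre* pool the *Le-Cre* value was 0.59, and with the Y-linked sum as a covariate it was 0.53. *Etv1*, by contrast, had 39.2, 33.5 and 41.2 CPM in *FVB/N*, 36.0, 37.6 and 38.4 CPM in *P0-3.9GFPCre* and 40.8, 39.6 and 39.4 CPM in *Le-Cre* pools. Its *Le-Cre* pools lay above its *P0-3.9GFPCre* pools by 0.10 on the log2 scale (adjusted p = 0.814 by edgeR), and both lay within the control range.

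**Figure D4:**
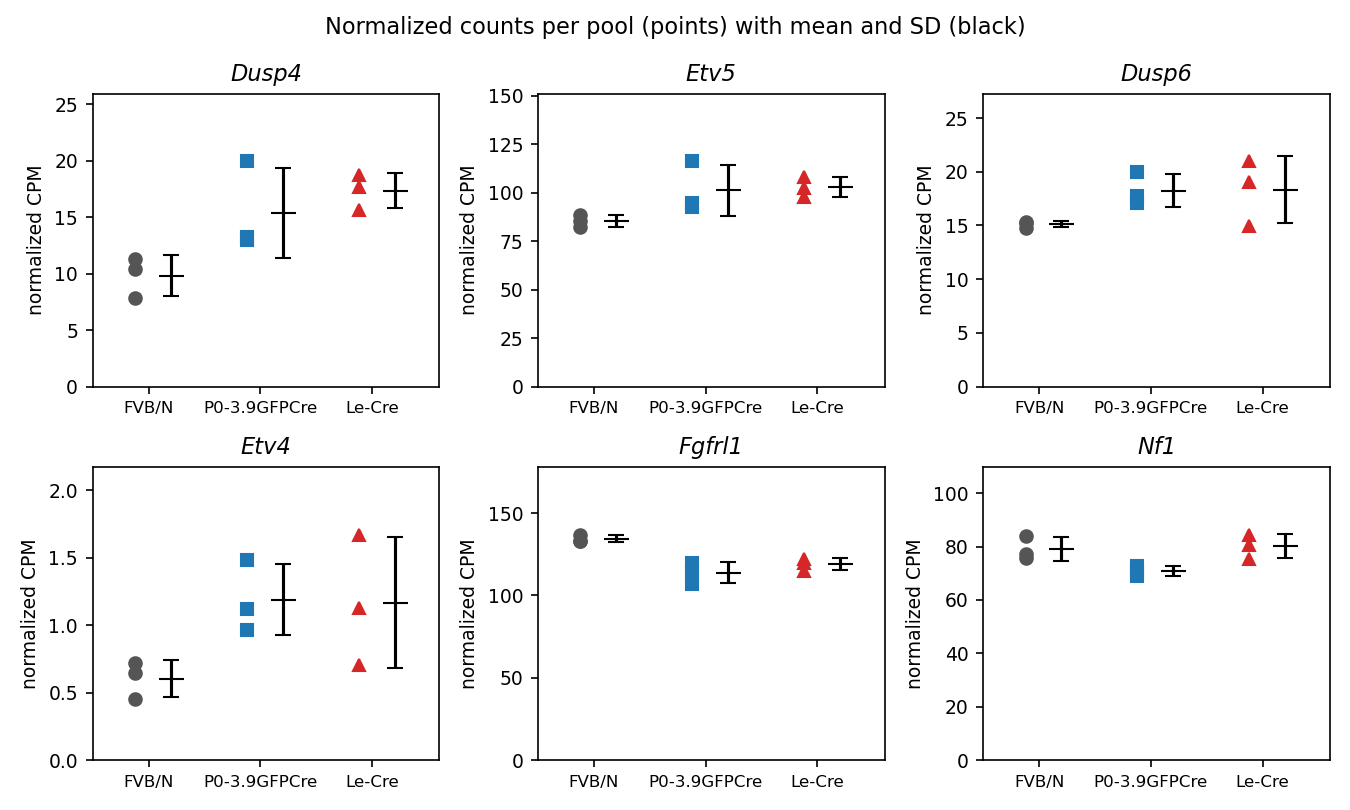
Normalized CPM of 6 genes in each of the 9 pools (points) with the mean and SD of each line (black, n = 3). For *Dusp4* and *Etv5* all 6 transgenic pools lie above the 3 *FVB/N* pools, for *Fgfrl1* all 6 lie below, for *Dusp6* and *Etv4* 1 *Le-Cre* pool overlaps with the controls, and for *Nf1* only the *P0-3.9GFPCre* pools lie apart.

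*Fgfrl1* was the one receptor gene whose pools lay below those of *FVB/N* without overlap in both Cre lines. It lies on chromosome 5 from 108692382 to 108706924, and its protein binds FGFs but has no tyrosine kinase domain. Its counts were 133, 133 and 137 CPM in *FVB/N*, 115, 120 and 107 CPM in *P0-3.9GFPCre* and 115, 122 and 120 CPM in *Le-Cre* pools. All 6 transgenic pools lay below the controls. The log2 fold change was -0.17 in *Le-Cre* (standard error 0.06, adjusted p = 0.491) and -0.24 in *P0-3.9GFPCre* (standard error 0.06, adjusted p = 0.590), both by edgeR's quasi-likelihood test. DESeq2 gave *P0-3.9GFPCre* an adjusted p of 0.0421 at a log2 fold change of -0.24, which is smaller than 1.5-fold. With the Y-linked sum as a covariate the *Le-Cre* value was -0.09 and the *P0-3.9GFPCre* value -0.20.

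The pools of *Fgfr1*, *Fgfr2* and *Fgfr3* overlapped with the controls in both lines. *Fgfr1* had 93.0, 94.7 and 90.4 CPM in *FVB/N*, 94.2, 94.1 and 100 CPM in *P0-3.9GFPCre* and 92.0, 92.7 and 93.3 CPM in *Le-Cre* pools. All *P0-3.9GFPCre* pools exceeded all *Le-Cre* pools, a log2 difference of -0.06 from *P0-3.9GFPCre* to *Le-Cre* (adjusted p = 0.857 by edgeR's quasi-likelihood test). Over *Fgfr1*, *Fgfr2* and *Fgfr3* the 95% intervals relative to *FVB/N* spanned -0.31 to 0.18 for *Le-Cre* and -0.22 to 0.19 for *P0-3.9GFPCre*, all inside 1.5-fold. *Fgf2* had 0.719, 0.559 and 0.778 CPM in *FVB/N*, 0.987, 1.36 and 0.853 CPM in *P0-3.9GFPCre* and 1.32, 1.17 and 0.995 CPM in *Le-Cre* pools. Its 6 transgenic pools lay above the controls, with log2 fold changes of 0.76 in *Le-Cre* and 0.63 in *P0-3.9GFPCre* (adjusted p = 0.654 and 0.796 by edgeR), at a mean of 23.5 counts. Without the second *P0-3.9GFPCre* pool the latter was 0.42. For *Fgf1* the pools overlapped in every comparison.

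The adaptors and the kinases of the cascade did not separate by line. Without *Frs3*, whose counts were too low for a narrow interval, the 7 adaptor genes had *Le-Cre* log2 fold changes from -0.12 to 0.12 and *P0-3.9GFPCre* values from -0.16 to 0.05, with 95% intervals inside -0.33 to 0.29. The lowest unadjusted p among them was that of *Ptpn11* in *P0-3.9GFPCre*, 0.0510 by edgeR's quasi-likelihood test before adjustment across genes. The 6 RAS, RAF, MEK and ERK genes of the set ranged from -0.08 to 0.04 in each Cre line. Their intervals stayed between -0.36 and 0.24, so a change of 1.5-fold lay outside them.

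*Nf1*, which encodes the RAS GTPase-activating protein neurofibromin, was the only cascade gene with separate pools. It lies on chromosome 11 from 79339693 to 79581612. Its counts were 75.8, 77.2 and 84.1 CPM in *FVB/N*, 70.7, 72.6 and 69.1 CPM in *P0-3.9GFPCre* and 75.4, 80.7 and 84.4 CPM in *Le-Cre* pools. The *P0-3.9GFPCre* pools lay below all others, by -0.16 on the log2 scale relative to *FVB/N* (adjusted p = 0.688). *Le-Cre* exceeded *P0-3.9GFPCre* by 0.18 (standard error 0.07, adjusted p = 0.531), both by edgeR's quasi-likelihood test. *Le-Cre* and *FVB/N* pools overlapped.

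The Sprouty and SPRED genes of the set were level across the lines apart from *Spry4*. For *Spry1*, *Spry2*, *Spred1* and *Spred2*, whose proteins hold back RAS and RAF activation, log2 fold changes lay between -0.08 and 0.00 in *Le-Cre* and between -0.13 and 0.04 in *P0-3.9GFPCre*, with intervals from -0.41 to 0.26. *Spry4* had 2.65, 3.31 and 2.05 CPM in *FVB/N*, 3.08, 2.62 and 3.01 CPM in *P0-3.9GFPCre* and 3.66, 3.47 and 3.53 CPM in *Le-Cre* pools. The *Le-Cre* pools lay above all others and close together. Its log2 fold change was 0.41 relative to *FVB/N* and 0.29 relative to *P0-3.9GFPCre*, with adjusted p-values of 0.692 and 0.787 by edgeR's quasi-likelihood test. Without the third *FVB/N* pool the first value was 0.26. Outside the set, *Spred3* had 8.13, 8.60 and 7.21 CPM in *FVB/N*, 7.69, 8.43 and 9.20 CPM in *P0-3.9GFPCre* and 6.94, 6.79 and 6.92 CPM in *Le-Cre* pools. The *Le-Cre* pools of *Spred3* lay below all others, by -0.21 relative to *FVB/N* and -0.29 relative to *P0-3.9GFPCre* on the log2 scale. The adjusted p-values were 0.719 and 0.556 by edgeR. *Spry3* pools overlapped in every comparison.

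The promoters of 4 of these genes are shown as examples. For *Dusp6*, *Etv5* and *Fgfrl1* all pools of at least 1 Cre line lay above or below all *FVB/N* pools in normalized counts. *Spry1* is the most abundant feedback gene, and its pools overlapped. *Nf1* and *Fgf2* also had a Cre line with pools apart from *FVB/N*, and a window, but are not shown. Each window is the 250 bases before the RefSeq start site on GRCm38.p6, written 5′ to 3′ on the gene's strand. Capitals mark the 6 letters CGGAAG, a sequence found at many ETS binding sites, or their reverse complement CTTCCG. Other forms of ETS site were not searched or marked.
*Dusp6* promoter, chr10:99262981-99263230, plus strand: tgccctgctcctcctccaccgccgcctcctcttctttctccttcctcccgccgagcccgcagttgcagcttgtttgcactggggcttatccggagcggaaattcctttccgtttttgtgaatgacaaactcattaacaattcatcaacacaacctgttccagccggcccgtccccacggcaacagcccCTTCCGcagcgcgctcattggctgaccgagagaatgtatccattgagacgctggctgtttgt
*Etv5* promoter, chr16:22439571-22439820, minus strand: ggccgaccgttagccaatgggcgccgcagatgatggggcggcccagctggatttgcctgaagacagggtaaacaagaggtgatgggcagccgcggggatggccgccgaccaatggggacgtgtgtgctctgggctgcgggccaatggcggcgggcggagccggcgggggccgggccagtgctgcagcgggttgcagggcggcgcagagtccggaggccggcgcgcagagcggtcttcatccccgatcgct
*Spry1* promoter, chr3:37639697-37639946, plus strand: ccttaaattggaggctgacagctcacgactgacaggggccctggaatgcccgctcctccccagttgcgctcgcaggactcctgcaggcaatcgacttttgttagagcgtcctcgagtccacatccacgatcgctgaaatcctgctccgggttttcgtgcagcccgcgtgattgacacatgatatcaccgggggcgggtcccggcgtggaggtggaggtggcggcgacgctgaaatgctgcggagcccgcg
*Fgfrl1* promoter, chr5:108693979-108694228, plus strand: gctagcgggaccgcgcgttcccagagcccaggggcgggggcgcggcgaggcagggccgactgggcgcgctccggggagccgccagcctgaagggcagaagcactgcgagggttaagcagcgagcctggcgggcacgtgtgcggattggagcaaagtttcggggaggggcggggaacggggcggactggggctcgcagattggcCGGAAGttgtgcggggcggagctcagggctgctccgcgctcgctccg
The *Dusp6* window held the motif once, on the minus strand, starting 62 bases before the start site, and the *Fgfrl1* window held it once, on the plus strand, 47 bases before. The *Etv5* and *Spry1* windows did not contain these letters. Searched on both strands, CGGAAG was present in 13.6% of all 32851 promoter windows of this length and in 7 of the 32 windows of 26 members. The members with a match were *Dusp6*, *Fgfrl1*, *Frs2*, *Nf1*, *Ptpn11*, *Spred1* and *Spred2*. *Dusp4* and *Etv4* had no window in the table.

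The wider pathway was covered by 86 further genes, of which 64 were tested. In each of the 3 comparisons 0 of the 64 passed the cutoff by edgeR's quasi-likelihood test. An unadjusted p under 0.05 occurred for 4 in *Le-Cre* (6.25%, against 7.94% of all tested genes) and 2 in *P0-3.9GFPCre* (3.13% against 6.81%), each set against *FVB/N*, and for 8 between the Cre lines (12.5% against 7.88%). DESeq2 called 0 in each comparison. The 12 heparan sulphate genes, including those for the enzymes that build and edit the chains, gave 0 past the cutoff and log2 fold changes from -0.23 to 0.46 in *Le-Cre*. The 5 tested further ligands and the 14 tested ERK effectors and early targets also gave 0.

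The most abundant of these genes was *Hspg2*. It encodes the lens capsule proteoglycan perlecan and had 1270, 1369 and 1433 CPM in *FVB/N*, 1118, 1304 and 1274 CPM in *P0-3.9GFPCre* and 1180, 1116 and 1246 CPM in *Le-Cre* pools. Its *Le-Cre* pools lay below the controls by -0.20 on the log2 scale (adjusted p = 0.555 by edgeR). Of the lowest genes, *Fgf9* had 0.189, 0.0860 and 0.0409 CPM in *FVB/N*, 0.206, 0.436 and 0.494 CPM in *P0-3.9GFPCre* and 0.0356, 0.624 and 0.226 CPM in *Le-Cre* pools. Its *P0-3.9GFPCre* pools lay above the controls and its *Le-Cre* pools overlapped with them, with log2 fold changes of 1.77 and 1.42 (adjusted p = 0.763 and 0.773 by edgeR) on 1 to 16 counts per pool. *Klb*, encoding the co-receptor of endocrine FGFs, had 0.492, 0.602 and 0.246 CPM in *FVB/N* and 0.247, 0 and 0.269 CPM in *P0-3.9GFPCre* pools, which overlapped, with a log2 fold change of -1.32 (adjusted p = 0.824 by edgeR) on at most 17 counts. Its *Le-Cre* pools had 0.463, 0.663 and 0.0905 CPM and overlapped with both. The immediate early gene *Fos* had 0.227, 0.430 and 0.491 CPM in *FVB/N* and 0.534, 0.741 and 1.18 CPM in *Le-Cre* pools, all above the controls, a log2 fold change of 1.08 (adjusted p = 0.695 by edgeR) on at most 26 counts. Its *P0-3.9GFPCre* pools had 0.740, 0.339 and 0.269 CPM and overlapped with both. None of these differences passed the threshold. *Egr1*, another immediate early gene that ERK signalling induces, was named after its values were seen. It had 2.12, 1.59 and 1.11 CPM in *FVB/N*, 1.93, 1.55 and 2.51 CPM in *P0-3.9GFPCre* and 1.96, 3.12 and 4.07 CPM in *Le-Cre* pools, with a log2 fold change of 0.92 in *Le-Cre* (adjusted p = 0.544 by edgeR) and overlapping pools.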

How the data were processed

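Polyadenylated RNA of 9 pools of newborn lenses was sequenced single-end on an Illumina HiSeq. Per the labels and the study's methods, the authors trimmed reads (Trimmomatic 0.36), aligned them with GSNAP on GRCm38 and used RSEM 1.3.0 for gene quantities. The annotation is not given in the sources used here. The deposited tables hold for each gene the expected counts, which share ambiguous reads between genes, the TPM and the effective and full lengths with posterior estimates. The deposited TPM values are scaled to each pool, so abundant crystallins lower all others.

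Expected counts were rounded to whole numbers, filtered with filterByExpr, scaled by TMM and fitted with edgeR 4.0.16 (quasi-likelihood test, R 4.3.3) over all 9 pools with 1 coefficient per line. Calls needed 1.5-fold and a Benjamini-Hochberg adjusted p of at most 0.05 over 15557 genes. The study itself called genes with DESeq2 1.10.1 at the same fold and adjusted p. Here DESeq2 1.42.0, limma 3.58.1 on log2(TPM + 0.1) and the other settings named in the closing section were alternatives. Replicates are separate pools of animals, numbered as in the sample titles. Positions are from GENCODE M21 and promoters from RefSeq. Values by pool are printed for members with an unadjusted p under 0.05 or pools that did not overlap in any comparison and for the highest and lowest of each role by mean TPM. Of the wider pathway, the 3 genes with the highest mean TPM and, per comparison, the 2 with the largest absolute log2 fold change are named, except some that are not reported here. Members and lists were chosen with earlier results of these data known.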

Additional observations from a re-analysis of the deposited data

How the results depend on the processing

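Relative to the 0 members past the cutoff, *Le-Cre* against *FVB/N* gave 1 with DESeq2 (49 over all genes, against 10), 1 without the filter on low counts (131 over all genes) and 5 at an unadjusted p under 0.05 (1236 over all genes), and *P0-3.9GFPCre* against *FVB/N* gave 1 without the filter (93 over all genes, against 0) and 6 at the unadjusted p (1060 over all genes). *Le-Cre* against *P0-3.9GFPCre* gave 1 at the unadjusted p (1226 over all genes). For the wider pathway the unadjusted counts were 4, 2 and 8. Leaving out any 1 pool gave 0 members in each comparison. With a replicate block, or with the Y-linked sum as a covariate, the counts were 0 in all 3 comparisons. The fit with the Y-linked sum called 0 of all genes between *Le-Cre* and *FVB/N*, where the main fit called 10. Residuals of pools with the same number correlated by 0.03 on average (-0.10 to 0.12, 9 pairs), so the numbers did not pair the pools. Of the log2 fold changes under alternatives, 494 kept their direction and side of the threshold, 3 passed it newly and 1 reversed. The reversed one was *Etv1* between the Cre lines, -0.18 by limma on log2(TPM + 0.1), a scale that its longer estimated transcripts in *Le-Cre* enter. TPM rescaled without crystallins put *Fgfr3* in *FVB/N* at 369 instead of 153. For *Etv4*, *Fgf1*, *Fgf2* and *Frs3*, each under 50 counts in every pool, and for *Spry4* and *Dusp4*, 95% intervals reached past 1.5-fold, so a change of that size was not excluded there.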
